A study of Mus musculus with 4 samples.

Results

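Assembled multi-exon transcripts outside annotated exons are spliced RNAs that the transcript assembler Cufflinks built from the reads of these libraries where the annotation it was given holds no exon on that strand. They were chosen by their presence in the deposited transcript tables, a measured property: a record needed an identifier outside Ensembl, 2 or more exons, 200 or more exonic bases, and no exon overlap on its own strand with any Ensembl transcript of any of the 4 tables. Of 36182 assembled records, 23677 had 2 or more exons and 200 or more bases, and 1052 of these met the whole rule. Merging records whose exons overlap on the same strand gave 528 loci. The level of a locus in a library is the sum of the FPKM (fragments scaled to transcript length and to library depth) of its records, and it is 0 where that library has no such record. The 4 libraries are squamous cell carcinoma stem cells from primary mouse skin tumours, sorted on integrin alpha6 and CD44 after removal of other lineages, of strain C57BL/6 X FBV. They carry TetO-Hras, a Hras gene under a tetracycline-responsive element, and LV-rtTA3-TGF-beta reporter, which holds the rtTA3 activator of that element and the reporter. Both groups share that strain, genotype, tissue and sort, and they differ in reporter state: 2 libraries are mCherry negative (no TGF-beta signalling by the labels) and 2 are mCherry positive, 1 of each in experiment 1 and in experiment 2. The labels give no age, no number of animals per library and no sign that the experiments used separate tumours, and p-values therefore describe the spread of these 4 libraries alone. The depth recovered from the tables was 3.21 to 3.83 gigabases of aligned sequence per library.

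As background, assemblers join reads that cross splice junctions into transcript models, so a model outside the annotation can be a long noncoding RNA, an unlisted protein-coding gene, an extension of a known gene or a transcribed pseudogene. Long noncoding RNAs are spliced and polyadenylated like messenger RNAs, tend to be expressed at low levels and in few cell types, and often start beside or opposite protein-coding genes. In skin, TGF-beta restrains proliferation of keratinocyte stem cells, and carcinoma cells that respond to it are known for slow cycling and invasion.

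The models can be read as sequence where a later annotation holds them. Coordinates of the loci are those of the files (mm9), and no genome of that build was used here. Instead, introns of the loci were looked up by length and distance to neighbouring transcripts in GENCODE M21, a later mouse annotation. An intron of 116 of the 528 loci (22.0%) was found there. The following joints of exons are shown because they identify loci described below by name. Each joint was assembled at the same position in all 4 libraries. The upstream exon is in lower case and the downstream exon in capitals, 5′ to 3′ on the transcript strand, from the M21 transcript sequences. Snhg8, Snhg6, 1810026B05Rik and Ndufb1-ps are listed there as noncoding, and Mroh6, Gm20219, 2610528A11Rik and 2310046K23Rik as protein coding.
Snhg8: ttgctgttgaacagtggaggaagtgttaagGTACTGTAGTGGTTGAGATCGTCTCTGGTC
Snhg6: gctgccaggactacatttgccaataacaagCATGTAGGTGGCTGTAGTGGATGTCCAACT
1810026B05Rik: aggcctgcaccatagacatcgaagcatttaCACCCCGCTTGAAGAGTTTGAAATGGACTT
Ndufb1-ps: catgctatttcaaagGGAACTGAGGCCCAA
Mroh6: tctgaggccctggcaGCCACTCGCGCTCTT
Gm20219: ccagtcgtacttcagGTGCTGGGCTTCCAG
2610528A11Rik: tgacaacctggaaagGAAACCACACAAGGC
2310046K23Rik: gtctgctgaactctgTTGGAAATCAAGAAT
The introns removed at these joints were 156 bases long in Snhg8, 218 in Snhg6, 5214 in 1810026B05Rik, 1282 in Ndufb1-ps, 183 in Mroh6, 452 in Gm20219, 4682 in 2610528A11Rik and 1330 in 2310046K23Rik. RefSeq lists 1810026B05Rik as Chaserr, a noncoding RNA beside the chromatin remodeller gene Chd2, and Ndufb1-ps as Ndufb1, a small subunit of respiratory complex I.

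Promoters were printed for 4 of these loci because their starts were known and their levels were among the highest. The windows are the 250 bases before the start in the RefSeq promoter table (GRCm38.p6), minus strand throughout. Capitals mark matches on either strand. The motifs searched were the TATA box with the letters TATAAA, the CCAAT box named by its own letters, the GC box of Sp1-type factors with the letters GGGCGG, and the AP-1 site with the letters TGANTCA.
Snhg8, chr3:123508337-123508586: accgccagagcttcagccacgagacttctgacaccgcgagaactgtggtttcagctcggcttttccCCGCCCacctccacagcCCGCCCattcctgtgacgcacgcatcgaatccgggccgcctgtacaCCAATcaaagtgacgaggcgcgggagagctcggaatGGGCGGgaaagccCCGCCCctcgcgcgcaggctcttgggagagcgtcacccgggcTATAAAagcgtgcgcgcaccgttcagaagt
Chaserr, chr7:73558396-73558645: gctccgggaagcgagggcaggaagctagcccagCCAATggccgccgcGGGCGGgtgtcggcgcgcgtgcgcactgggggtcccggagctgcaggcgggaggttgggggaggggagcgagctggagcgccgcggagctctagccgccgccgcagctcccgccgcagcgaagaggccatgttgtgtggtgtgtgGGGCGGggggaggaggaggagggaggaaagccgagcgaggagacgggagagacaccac
Ndufb1, chr12:101975739-101975988: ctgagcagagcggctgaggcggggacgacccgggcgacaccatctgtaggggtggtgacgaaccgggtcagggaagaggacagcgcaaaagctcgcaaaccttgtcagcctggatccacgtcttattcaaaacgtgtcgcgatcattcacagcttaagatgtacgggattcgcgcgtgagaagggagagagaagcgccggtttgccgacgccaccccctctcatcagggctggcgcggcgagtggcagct
2610528A11Rik, chr14:37110102-37110351: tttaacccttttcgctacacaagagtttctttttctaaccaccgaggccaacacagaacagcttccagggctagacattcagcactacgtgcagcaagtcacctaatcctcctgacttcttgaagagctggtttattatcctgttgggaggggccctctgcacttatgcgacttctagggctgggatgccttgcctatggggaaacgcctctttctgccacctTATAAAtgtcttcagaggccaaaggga
Snhg8 held TATAAA at 30 bases before its start, CCAAT at 121, and 4 copies of GGGCGG. Chaserr held CCAAT and 2 copies of GGGCGG in a window of 73.6% G and C. In 2610528A11Rik the only match was TATAAA, 27 bases before the start, in a window of 49.2% G and C. None of the 4 motifs was present in the Ndufb1 window, and no matches overlapped in any of the windows. Of 110 M21 genes matched to loci, 60 had a promoter in the table, with 82 windows between them. TATAAA was present in 12.2% of those windows and in 12.3% of all 32536. The shares were 37.8% and 33.8% for CCAAT, 34.1% and 33.0% for GGGCGG, and 11% and 6.73% for TGANTCA. A match describes letters in the window and not a bound site.

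Most loci were assembled in a single library. Of the 528 loci, 324 were found in 1 library, 106 in 2, 32 in 3 and 66 in all 4. The reporter negative libraries held 223 and 214 loci and the reporter positive libraries 231 and 228. Of the 106 loci found in 2 libraries, 59 were in both libraries of the same reporter state (35 positive, 24 negative), 25 in both libraries of the same experiment and 22 in neither arrangement. The share with an intron in M21 was 13.9% among loci of 1 library, 28.3% among loci of 2, 50% among loci of 3 and 37.9% among loci of 4. Levels were low: the median over the libraries that assembled a locus was 1.87 FPKM for loci of 1 library and 3.94 FPKM for loci of 4. The loci held between 0.472% and 0.814% of the summed FPKM of all transcripts of 200 or more bases.

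**Figure D1:**
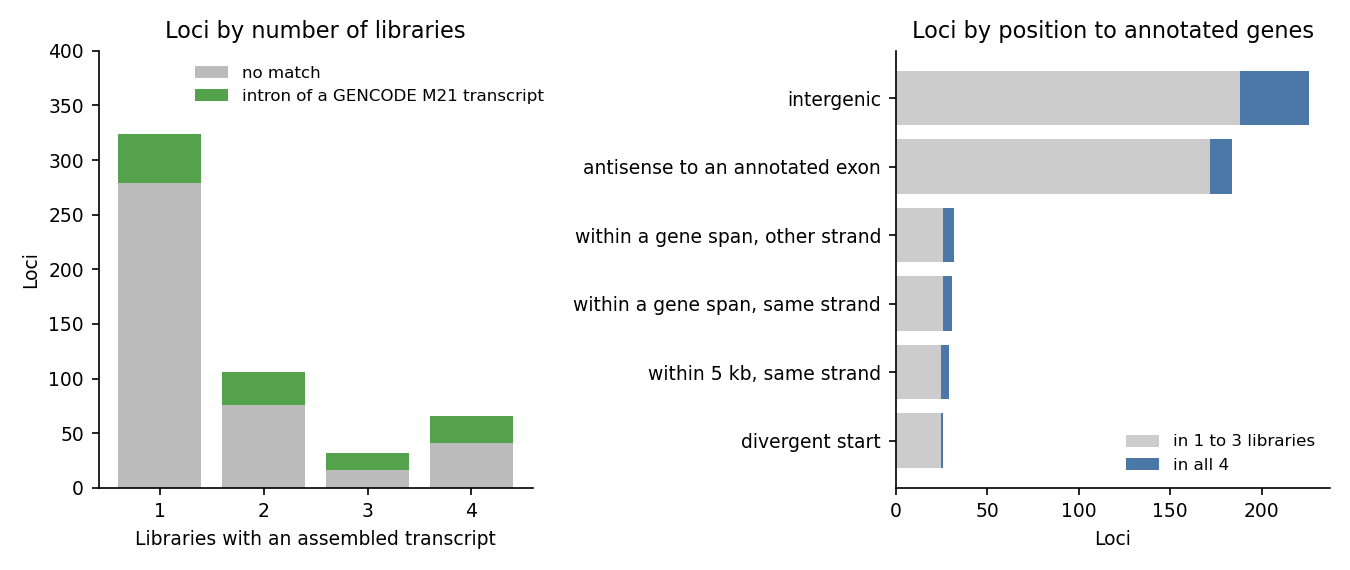
Number of loci by the number of libraries that assembled them (left, green: an intron was found in GENCODE M21) and by position relative to annotated genes (right, blue: assembled in all 4 libraries). Of 528 loci, 324 were assembled in 1 library and 66 in all 4, and the intergenic class was the most frequent.

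A level of 0 does not show that a locus was silent. For 1216 pairs of a locus and a library no member record existed, and in 329 of them (27.1%) another assembled record lay over the same exons. In 279 of these pairs that record was a single exon without a strand, and in 58 it lay on the same strand. Loci with a 0 in any library are therefore described below without a test, since the rule itself made their difference. At the length limit, the 14 records of 200 to under 250 bases had a median of 7.34 FPKM (4.17 to 45.0), and 57.1% of them lay inside the confidence interval given beside them. The 4 otherwise eligible records of 150 to under 200 bases had a median of 65.3 FPKM (35.1 to 94.1), and none of them did.

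By position, 226 loci were intergenic, 184 were antisense to an annotated exon, 32 lay in the span of a gene on the other strand, 31 in the span of a gene on the same strand, 29 within 5 kb of a gene on the same strand, and 26 started within 1 kb of a gene's start on the other strand. Of the intergenic loci 38 were found in all 4 libraries (16.8%). Of 140 loci opposite protein-coding genes 8 were (5.71%), and of 29 opposite pseudogenes 3 were (10.3%). The median level in the libraries that assembled a locus was 32.5 FPKM opposite pseudogenes, 4.92 FPKM opposite protein-coding genes and 1.58 FPKM in intergenic positions. Among loci found in all 4 libraries, the one with the highest mean level lay opposite the processed pseudogene Gm14328 (chr18:74462949-74463518, plus strand). It stood at 1102 and 470 FPKM in the negative and 1658 and 1107 FPKM in the positive libraries. The groups did not overlap there, but the 2 negative libraries were further from each other than the group means were, and the change of 0.91 (SE 0.42, log2 of FPKM + 1) had an adjusted p of 0.206 in limma and 0.002 with the experiment as a block. Pseudogenes share sequence with their parent genes, so the level of such a locus is uncertain. The negative value of experiment 2 also lay above its own confidence interval (264 to 289 FPKM). Among 186 records of the loci that the rule for named loci chose or that passed, 18 lay above their interval and 0 below. Besides the locus opposite Gm14328, these were in the loci of 2610528A11Rik, Snhg8, Ndufb1-ps and 2310046K23Rik. The others were in the loci nearest to Trak2 and Tspan9 and in the spans of Rpl30-ps8, Art2a-ps and Hand1.

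The models were short. The form with the most exons had 2 exons in 380 loci, 3 in 92, 4 in 38 and 5 or more in 18, up to 12. The longest exonic length of a locus ranged from 204 to 8231 bases with a median of 1028. The 930 distinct introns ranged from 50 to 296663 bases with a median of 1909, and 29 introns in 21 loci were over 50 kb. Splice positions recurred where loci recurred: 188 of the 204 loci of 2 or more libraries had an intron with identical ends in at least 2 of them, and 54 of the 66 loci of all 4 libraries had an intron identical in all 4. Of the 116 loci with an M21 intron, 68 belonged to long noncoding genes (43 of them lincRNAs), 35 to protein-coding genes and 13 to pseudogenes. For 27 of the 116 the M21 gene also had an Ensembl transcript in the tables, and for 89 it had none.

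**Figure D2:**
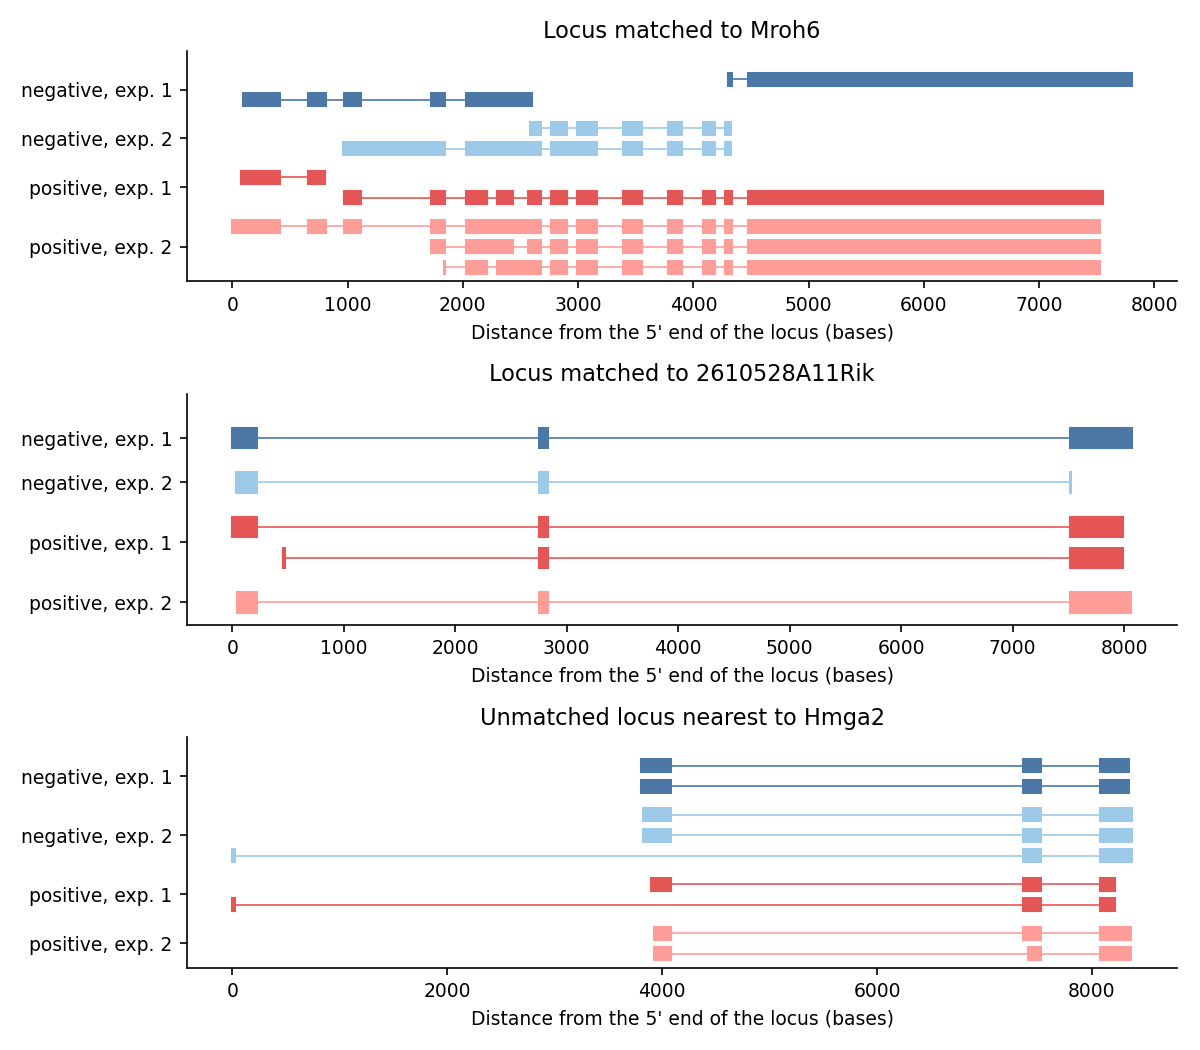
Exons (boxes) and introns (lines) of every member record of 3 loci in each library, in bases from the 5′ end of the locus. The 2610528A11Rik locus has the same 2 introns in all 4 libraries, while the Mroh6 records have 2 to 7 exons in the negative libraries and up to 12 in each positive one.

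Several of the most abundant loci matched genes of the later annotation. The locus of 2610528A11Rik (chr14:37915320-37923387, minus strand, 3823 bases from Cdhr1 on the same strand) stood at 321 and 187 FPKM in the negative and 493 and 496 FPKM in the positive libraries. RefSeq lists this gene also as Gpr15l, which encodes a secreted ligand of the receptor GPR15 made by epithelia. All positive libraries were above all negative ones, with means of 254 ± 94.6 and 495 ± 2.09 FPKM (SD, n = 2 each). The small SD does not give the precision of the values. In experiment 1 the negative value lay above its interval (253 to 271 FPKM), and the positive value summed records of 419 and 74.7 FPKM. In experiment 2 the positive value lay above its interval (387 to 407 FPKM), and the negative record had 288 bases. The change was 1.01 (SE 0.27) on the log2 scale, with an adjusted p of 0.058 in limma, and 0.001 with the experiment as a block. Its joint and its TATAAA-bearing window are printed above.

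Snhg8 and Snhg6, host genes of small nucleolar RNAs, did not separate the groups. Snhg8 (chr3:123210467-123211477, minus strand) stood at 194 and 97.9 FPKM in the negative and 61.5 and 130 FPKM in the positive libraries. The order of the groups turned between the experiments. In experiment 1 both values lay above their intervals, 93.1 to 110 FPKM (negative) and 41.7 to 49.2 FPKM (positive). The Snhg8 records had 335 and 449 bases in the negative and 605 and 369 bases in the positive libraries. Snhg6 (chr1:9932050-9934246, minus strand, sharing 117 exonic bases with Mcmdc2 on the other strand) stood at 7.53 and 34 FPKM in the negative and 24 and 47.9 FPKM in the positive libraries. The positive library was higher within each experiment, and the groups overlapped over both (change 1.02, SE 0.63, limma adjusted p 0.334, with the block 0.006). The Snhg6 records had 1645 and 1651 bases in the negative library of experiment 1. They had 301 to 605 bases in the other libraries, so the low value of 7.53 FPKM belongs to longer models. The part of model length in this change was not tested.

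Ndufb1-ps and 1810026B05Rik were the most even of the abundant loci. Ndufb1-ps (chr12:103206306-103214472, minus strand) starts opposite the start of Cpsf2, which encodes a subunit of the mRNA 3′ end cleavage complex, and it overlaps 161 exonic bases of that gene. It stood at 83.9 and 78 FPKM in the negative and 81.1 and 67.4 FPKM in the positive libraries, and Cpsf2 at 12.7, 16.7, 13.9 and 14.6 FPKM in the same order. The change of Ndufb1-ps was -0.13 (SE 0.17) and that of Cpsf2 was -0.03 (SE 0.20). 1810026B05Rik (chr7:80688964-80703413, minus strand, 2332 bases from Chd2) stood at 17.8 and 21.7 FPKM in the negative and 19.7 and 19.4 FPKM in the positive libraries, so its groups overlapped. Chd2 stood at 3.8, 5.79, 4.44 and 5.57 FPKM.

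For the comparison of reporter positive with reporter negative cells, the loci were fitted together with the annotated genes. A feature needed a value above 0 in all 4 libraries and 1 FPKM or more in at least 2, which 65 loci and 11496 genes met. Of the 528 loci, 157 reached 1 FPKM in 2 libraries, and those of them that were not tested were listed at 0 in at least 1 library. Of the 65 loci, 10 (15.4%) passed an adjusted p of 0.05 in limma, 6 higher and 4 lower in reporter positive cells. Over all 11561 features 10.3% passed, 4.02% higher and 6.25% lower. The difference between these shares was not tested. At an unadjusted p of 0.05, 26 loci passed. The median change was -0.01 for the loci and -0.18 for the genes. With median-of-ratios scaling over the genes these medians were 0.20 and 0.01, and the loci past the threshold were then 7 higher and 2 lower. Values of positive and negative libraries did not overlap in 42 of the 65 loci, against 58.4% of all features. Both experiments had a difference of 1 or more on the log2(FPKM + 1) scale, which takes more than 2-fold in FPKM, upward in 3 loci (Mroh6, in Rpl30-ps8 and nearest to Ranbp6) and downward in 1 (in Gm37240), against 2.26% and 2.74% of all features. With the experiment as a block 29 loci passed, 15 higher and 14 lower, among them the same 10, where 26.7% of all features passed.

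**Figure D3:**
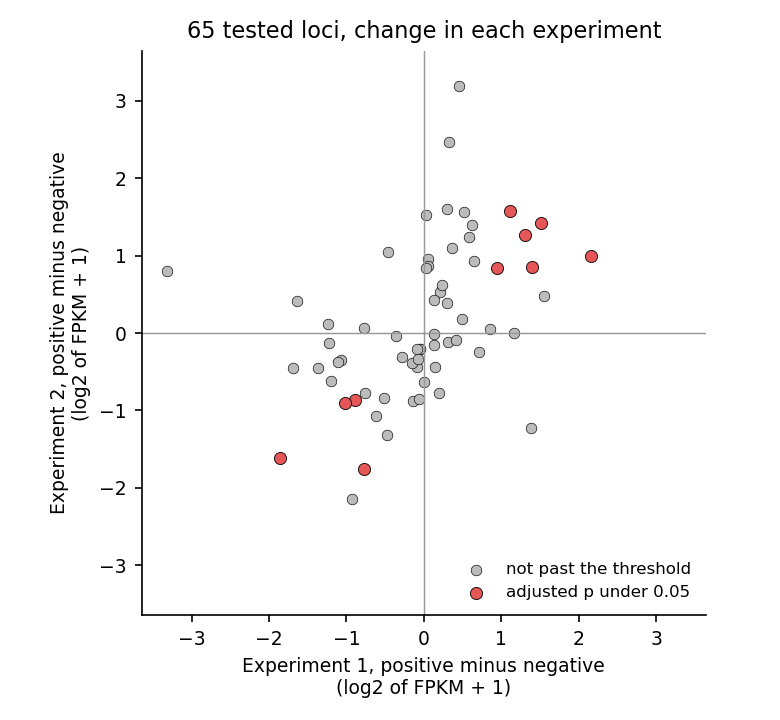
Difference of each of the 65 tested loci between the positive and the negative library (log2 of FPKM + 1) in experiment 1 (horizontal) and experiment 2 (vertical), with loci of limma adjusted p under 0.05 in red. The 10 red loci lie at upper right and lower left, where both experiments have the same sign, and 14 loci lie where the signs differ.

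The direction in the 2 experiments, which share no library, was the same in most of the 65 loci: 26 were higher and 25 lower in both, and 14 were opposite. Across the 65 loci the differences of the experiments correlated with r = 0.42 (rho 0.573), and across the 11496 genes with r = 0.733 (rho 0.657). These are descriptions across features, which are not independent, and each library's depth is shared by all its points.

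The 6 loci that rose included 2 protein-coding genes of the later annotation. Mroh6 (chr15:75711469-75719272, minus strand, 2122 bases from Naprt), which encodes a protein of the maestro heat-like repeat family, stood at 1.95 and 1.26 FPKM in the negative and 7.45 and 5.05 FPKM in the positive libraries. Both positive libraries exceeded both negative ones, and the change was 1.47 (SE 0.26, limma adjusted p 0.018). The sum adds several records in each library: the highest single record was 0.985 and 0.909 FPKM in the negative and 3.79 and 2.18 FPKM in the positive libraries. A change computed from the highest record per library was 1.0 with an adjusted p of 0.076. Naprt, which starts the synthesis of NAD from nicotinic acid, stood at 6.80, 7.69, 3.94 and 5.11 FPKM and did not pass (change -0.58, SE 0.21, adjusted p 0.133). Gm20219 (chr17:56690842-56693843, minus strand, 6545 bases from Safb2) stood at 6.11 and 7.38 FPKM in the negative and 12.7 and 14.0 FPKM in the positive libraries. Its change was 0.89 (SE 0.20, adjusted p 0.036). The groups were apart and each group's libraries lay close together.

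The other 4 loci that rose had no intron in M21. Nearest to Ranbp6, at 25300 bases, a locus of up to 3 exons (chr19:29912764-29917991, minus strand) stood at 1.31 and 1.11 FPKM in the negative and 4.69 and 4.06 FPKM in the positive libraries (change 1.28, SE 0.20, adjusted p 0.014). Ranbp6, an importin-like gene, stood between 2.65 and 2.90 FPKM in all 4. Nearest to Trak2, at 9546 bases, a 2-exon locus (chr1:58942550-58947747, minus strand) stood at 1.47 and 2.07 FPKM against 10 and 5.13 FPKM. Its change of 1.58 (SE 0.31, adjusted p 0.026) was larger in experiment 1 (2.16) than in experiment 2 (0.996). Trak2, an adaptor for mitochondrial transport along microtubules, stood at 3.06, 5.60, 2.74 and 3.82 FPKM and its groups overlapped.

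A locus of 3 exons whose nearest gene is Hmga2 (chr10:120043455-120051825, plus strand, 129930 bases away) rose as well. Hmga2 encodes a chromatin protein known as a TGF-beta target in carcinoma cells. The locus stood at 6.89 and 6.41 FPKM in the negative and 19.7 and 12.4 FPKM in the positive libraries, with no overlap (change 1.13, SE 0.25, adjusted p 0.036). Hmga2 itself stood at 15.9, 19.4, 23.6 and 17.3 FPKM, and its groups overlapped (change 0.19, SE 0.21, adjusted p 0.606). The sixth locus lay in the span of the pseudogene Rpl30-ps8 on its strand (chr12:100262653-100311234, plus strand, up to 3 exons). It stood at 6.29 and 5.98 FPKM against 14.8 and 19.8 FPKM (change 1.35, SE 0.21, adjusted p 0.013), and Rpl30-ps8 at 219, 155, 176 and 170 FPKM. Reads of this ribosomal pseudogene can come from copies of the same sequence, so both levels are uncertain.

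**Figure D4:**
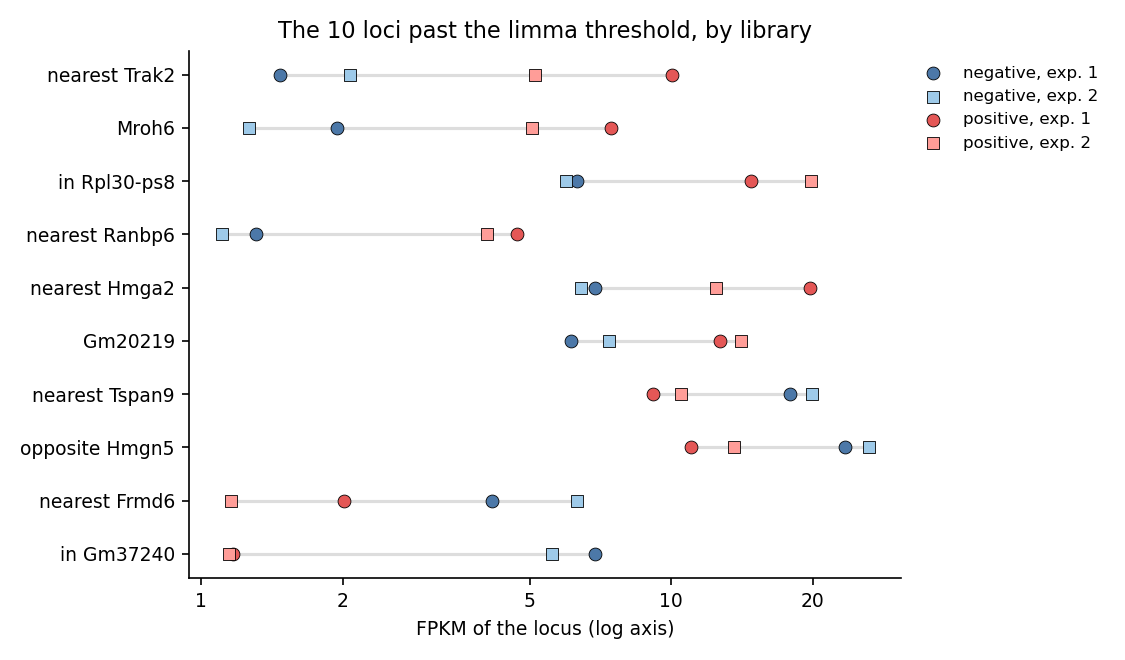
FPKM (log axis) of the 10 loci with a limma adjusted p under 0.05 in each of the 4 libraries, named by their M21 gene or by the annotated gene they lie in, opposite to or nearest to. In the upper 6 loci both positive libraries lie above both negative ones, and in the lower 4 the order is reversed.

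The 4 loci that fell had no intron in M21. In the span of Gm37240, on its strand, a 2-exon locus of up to 4603 exonic bases (chr3:84915108-84925952, minus strand) stood at 6.87 and 5.58 FPKM in the negative and 1.17 and 1.15 FPKM in the positive libraries. Its change of -1.74 (SE 0.21, adjusted p 0.006) was the largest fall of the 65 loci. It was also the only locus lower by 1 or more on the log2 scale in both experiments, by values of -1.86 and -1.61. Its records were of unlike length, with 4603 and 723 bases in the negative library of experiment 1 and 4590 in that of experiment 2. In the positive libraries they had 2216 and 1331 bases. The record of 723 bases gave 3.39 of the 6.87 FPKM. The part of model length in this fall was not tested. Gm37240 itself was listed at 0 in all 4 libraries. Nearest to Frmd6, at 131508 bases, a 2-exon locus (chr12:71772717-71794993, plus strand) stood at 4.15 and 6.31 FPKM against 2.02 and 1.16 FPKM (change -1.26, SE 0.27, adjusted p 0.033). Frmd6, a regulator upstream of the Hippo pathway, stood at 13.5, 18.9, 11.1 and 11.6 FPKM and did not pass (adjusted p 0.212).

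Nearest to Tspan9, at 3549 bases, a locus of up to 3 exons (chr6:128097161-128124533, plus strand) stood at 17.9 and 19.9 FPKM in the negative and 9.15 and 10.5 FPKM in the positive libraries (change -0.88, SE 0.18, adjusted p 0.031). The locus opposite Hmgn5, a nucleosome-binding protein gene (chrX:106199779-106203645, plus strand), stood at 23.4 and 26.3 FPKM against 11 and 13.6 FPKM (change -0.96, SE 0.19, adjusted p 0.025). Hmgn5 was listed at 0 in 3 libraries and at 8.32 FPKM in the positive library of experiment 1. In both loci the groups were apart by more than the spread within them. At the Tspan9 locus, however, the negative value of experiment 1 lay above the upper end of its interval (15.1 FPKM). Both positive values there also lay above theirs (8.13 and 9.30 FPKM). The negative value of experiment 2 summed records of 14.1 and 5.79 FPKM. With the highest record per library, the change of that locus was -0.65 (limma adjusted p 0.152). The sum of the Hmgn5 locus and Hmgn5 was 23.4 and 26.3 FPKM in the negative and 19.3 and 13.6 FPKM in the positive libraries, so the groups stayed apart but by less.

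Most of the 10 calls depended on a library or a setting. With no filter on low values 3 of the 10 passed, as with features at 0 kept and with the highest record per feature as the level. Only the locus in Gm37240 and that nearest to Ranbp6 passed in all of these. Mroh6 had adjusted p of 0.055, 0.056 and 0.076 in the same order, and the locus in Rpl30-ps8 had 0.084 with the highest record. Leaving out a library leaves 1 group with a single sample, whose spread is then taken from the other group and from the other features. The loci in Gm37240, nearest to Ranbp6, in Rpl30-ps8 and of Mroh6 kept a limma adjusted p under 0.05 with each library left out in turn. The locus nearest to Trak2 reached 0.053 without the negative library of experiment 1. Without the negative library of experiment 2, the adjusted p was 0.078 for the locus nearest to Hmga2, 0.076 for that nearest to Frmd6, 0.060 for that nearest to Tspan9 and 0.056 for that opposite Hmgn5. Without the positive library of experiment 1 it was 0.232 nearest to Hmga2, 0.168 nearest to Tspan9, 0.118 for Gm20219 and 0.111 opposite Hmgn5. Without the positive library of experiment 2 it was 0.227 for Gm20219, 0.10 nearest to Frmd6 and 0.066 nearest to Tspan9. With median-of-ratios scaling the loci nearest to Tspan9 (adjusted p 0.054) and Frmd6 (0.050) no longer passed. The direction of each of the 10 loci was the same in every one of these fits. The loci nearest to Tspan9 and of Gm20219, which passed, lay outside the rule for named loci, as did 1810026B05Rik and the loci opposite Ereg and beside Tgm3. These 5 were chosen after their values were seen.

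Summed markers of several cell types differed between the reporter states, those of fibroblasts by most. For comparison, the groups did not overlap in 58.4% of all features. The summed FPKM of 10 fibroblast genes, all listed above 0 in some library, was 135 and 270 in the negative and 18.9 and 42.4 in the positive libraries, with no overlap. Keratinocyte markers (8 of 10 measured) summed to 3165 and 3326 FPKM in the negative and 3790 and 3886 FPKM in the positive libraries. A further 3 sums were higher in both negative libraries than in both positive ones. Endothelial markers summed to 17.7 and 17.6 against 11.1 and 9.95 FPKM. Muscle markers summed to 5.52 and 3.53 against 2.97 and 3.14 FPKM. Melanocyte markers summed to 1.38 and 3.90 against 0.505 and 1.11 FPKM, with Pmel at 0 in all 4. Only 1 of 6 measured muscle markers and 1 of 7 melanocyte markers reached 1 FPKM in any library, so these 2 sums are near the floor. Leukocyte markers summed to 4.8 and 3.57 against 3.09 and 9.96 FPKM and overlapped. The part of such cells in the loci that rose or fell was not tested. In such bulk libraries, fewer cells of a type and less RNA per cell cannot be told apart.

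Several loci with larger changes did not pass. 2310046K23Rik (chr3:92336427-92338485, minus strand) had the largest rise of the 65. It lies among the cornified envelope genes of the epidermal differentiation complex, 32012 bases from Sprr4, and M21 lists it as protein coding. It stood at 25.5 and 6.89 FPKM in the negative and 35.3 and 71.2 FPKM in the positive libraries. The positive libraries were above the negative ones, but the 2 experiments gave differences of 0.45 and 3.19 on the log2 scale, and the change of 1.82 (SE 0.56) had an adjusted p of 0.086, with the block 0.010. A locus in the span of Art2a-ps on the other strand (6.36, 0.960, 8.23 and 9.87 FPKM) and Gm39090, in the span of Bcl7c on the other strand (1.39, 1.82, 2.42 and 7.35 FPKM), were higher in both experiments, with adjusted p of 0.154 and 0.148. The block brought both past the threshold, at 0.017 and 0.010. In experiment 2, however, the levels of Gm39090 came from models of unlike length. A record of 290 bases gave 6.69 FPKM of the positive value, and the main negative record had 1957 bases. Whether the rise of Gm39090 holds for equal models was not tested. Bcl7c, a subunit of chromatin remodelling complexes, went the other way, at 40.3, 37.6, 22.8 and 19.9 FPKM (change -0.84, adjusted p 0.025). Models of the Art2a-ps locus were also unlike. A record of 244 bases gave 4.17 FPKM of its negative value in experiment 1. Its negative value in experiment 2 came from a single record of 1610 bases. The positive values each included a shorter record, of 473 and 402 bases. The part of model length in this rise was not tested.

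Among lower values that did not pass, 2310009A05Rik (chr9:72887270-72890580, plus strand), listed by RefSeq as Pigbos1, overlaps Pigb on the other strand. It stood at 36.8 and 15.5 FPKM in the negative and 10.8 and 11.1 FPKM in the positive libraries (change -1.07, SE 0.36, adjusted p 0.112, with the block 0.009). An intergenic locus on chrX:160114572-160128176 stood at 3.05 and 10.4 FPKM against 1.13 and 1.57 FPKM (adjusted p 0.076). Its value of 10.4 FPKM came from a single record of 220 bases, just above the length limit. Records of this locus in the other libraries had 3003 to 3172 bases, so the fall in experiment 2 compares unlike models. On chromosome 11, a locus in the span of Hand1 stood at 12.1, 9.10, 4.11 and 6.42 FPKM (adjusted p 0.072), and further along on the same strand a 4-exon locus nearest to Gm12245 stood at 3.97, 3.55, 1.16 and 1.96 FPKM (adjusted p 0.053). Platr25 (2.67, 3.09, 1.64 and 0.642 FPKM) had an adjusted p of 0.082. All 5 were below the threshold of 0.05 with the block.

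Changes of the loci were set beside those of the annotated genes next to them. Of the 65 tested loci 30 had a tested gene as host or nearest neighbour, and 16 of the 30 had a difference of the same sign as that gene (r = 0.193 across loci, given as a description). In none of the 30 did the locus and the gene both pass. With the experiment as a block both passed in 5 of the 30, in 3 with the same sign and in 2 with opposite signs, which were Gm39090 with Bcl7c and Mroh6 with Naprt. Whether or not they passed, the sign was the same in 8 of the 14 loci in, opposite or within 5 kb of their gene. It was the same in 8 of the 16 intergenic loci.

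**Figure D5:**
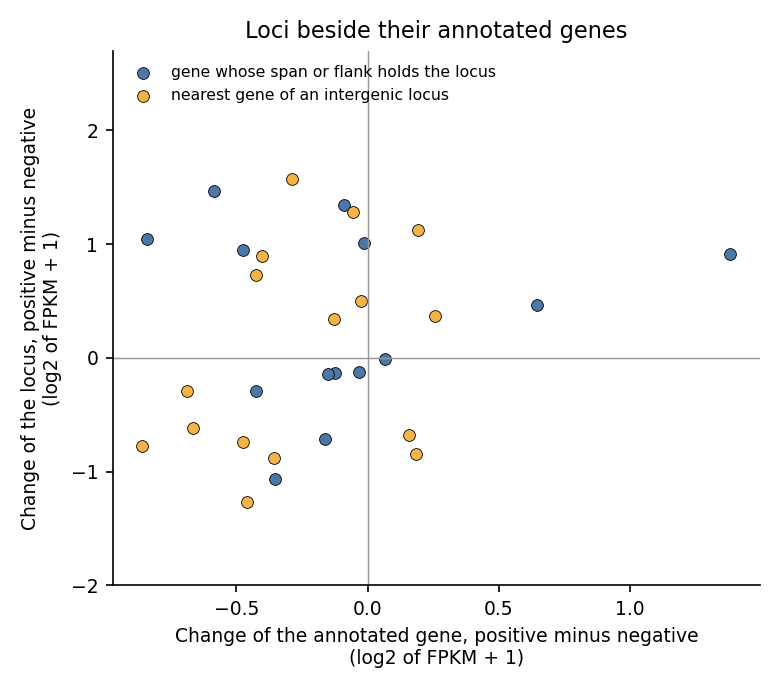
Change of 30 tested loci against the change of the annotated gene they lie in, beside or opposite to (blue) or nearest to (yellow), positive minus negative, log2 of FPKM + 1. Points lie on both sides of both zero lines, and 16 of 30 have the same sign on both axes.

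Opposite strands need care in these libraries, since the labels do not say that the kit kept the strand of the RNA and reads of a gene and its antisense partner then cannot be told apart. Over 181 antisense or divergent loci whose gene reached 1 FPKM in a library, the gene was listed at 0 in 15 of 250 library entries where the locus was assembled (6.00%) and in 3 of 474 where it was not (0.633%). Ier5, an immediate-early gene of growth factor signalling, is the clearest case. The locus opposite it (chr1:156938309-156946754, plus strand) stood at 32.1 and 38.5 FPKM in the negative libraries and was not assembled in the positive ones. Ier5 stood at 12.3 and 0 FPKM in the negative and 38.5 and 35.4 FPKM in the positive libraries. The sum of gene and locus was 44.4 and 38.5 FPKM in the negative and 38.5 and 35.4 FPKM in the positive libraries, so the large difference between groups in each was not in their sum, which adds values scaled to different lengths. Inhba, which encodes the activin A subunit, showed the same exchange with the locus that starts opposite it (chr13:16094252-16104477, minus strand). The gene stood at 1.83 and 2.28 FPKM in the negative libraries and was listed at 0 in the positive ones, and the locus stood at 0 in the negative and at 1.89 and 1.15 FPKM in the positive libraries. Their sums were 1.83 and 2.28 against 1.89 and 1.15 FPKM.

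Other genes kept their difference when the locus was added. Ereg, a ligand of the EGF receptor, stood at 3.40 and 4.20 FPKM in the negative and 11.2 and 13.4 FPKM in the positive libraries (change 1.47, SE 0.21, adjusted p 0.011). The locus opposite it was found only in the negative libraries, at 3.67 and 3.86 FPKM, and the sums were 7.07 and 8.07 against 11.2 and 13.4 FPKM. The groups stayed apart, by less than in the gene alone. Ivl, which encodes the cornified envelope precursor involucrin, stood at 14.4, 8.67, 61.7 and 75.1 FPKM (change 2.50, adjusted p 0.004). A locus opposite it was at 6.92 and 2.37 FPKM in the negative libraries, at 22.6 FPKM in the positive library of experiment 1 and not assembled in that of experiment 2.

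Loci beside genes of epidermal differentiation or TGF-beta signalling were counted. These counts of loci were not set against those beside other genes. Over all features 4.02% rose and 6.25% fell, and 26.7% passed with the block. Of 49 keratinocyte differentiation genes 37 were tested, 26 rose and 1 fell, with a median change of 1.18 (31 passed with the block), and 6 loci had such a gene as host or nearest gene, 1 of them assembled in all 4 libraries and none past the threshold. Of 55 genes of TGF-beta signalling 42 were tested, 1 rose and 12 fell, with a median change of -0.52 (23 passed with the block), and 4 loci lay beside such a gene. The locus nearest to Hmga2 was the only one of those in all 4 libraries. A 2-exon locus 160 bases from the start of Tgm3, on the other strand, was at 1.62 FPKM in the positive library of experiment 1 alone, where this epidermal transglutaminase stood at 585 FPKM. A locus nearest to Smad1 was at 2.45 FPKM in the negative library of experiment 1 alone, and a locus opposite Inhbb at 2.59 FPKM in the positive library of experiment 1 alone.

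Of the 59 loci found in both libraries of only 1 reporter state, the 4 with the highest levels in each state are named here, the locus opposite Ier5 among them. Their absence elsewhere is subject to the limits on a 0 given above. In the positive libraries alone were a locus opposite Zfp804a (4.24 and 11.7 FPKM), a locus opposite Tacc2 (4.53 and 6.53), AC104867.1 on chromosome 18 (5.82 and 4.69) and a locus 970 bases from Adgrf4 (1.11 and 5.88). Zfp804a itself was at 0.064 FPKM or lower in every library, and Tacc2, a centrosome-associated coiled-coil gene, stood between 21.1 and 33.0 FPKM. The nearest annotated gene of AC104867.1 was Gm94, at 33374 bases, which stood at 148 and 99.7 FPKM in the negative and 1101 and 925 FPKM in the positive libraries (change 3.05, adjusted p 0.002). Both negative libraries had another assembled record over the exons of the Adgrf4 locus. In the negative libraries alone were loci opposite the pseudogene Gm10169 (157 and 185 FPKM), within Pnpla8 (4.37 and 7.0) and opposite Hccs (4.85 and 3.54). Gm10169 stood at 647, 382, 525 and 444 FPKM, and Pnpla8 and Hccs changed by 0.48 and -0.04 without passing.

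Opposite 3 other processed pseudogenes, loci were assembled in only 1 or 2 libraries. The locus opposite Gm11539 was at 344 FPKM in the negative library of experiment 2, that opposite Gm10080 at 309 FPKM in the positive library of experiment 1, and that opposite Rps15-ps2 at 186 and 264 FPKM in the same pair of libraries. None of the 3 was assembled elsewhere, while their pseudogenes were listed in all 4 libraries, at 102 FPKM or more. By contrast the locus opposite Gm13461 was even, at 33.5, 30, 32.3 and 25.8 FPKM, and that opposite ENSMUSG00000073376 stood at 45.9, 46.0, 26.5 and 48.2 FPKM. Among loci with many exons in all 4 libraries, a 6-exon locus nearest to Ofcc1 (3.03, 5.40, 2.86 and 2.55 FPKM) and Gm6473 (5 exons, 4.91, 3.99, 3.88 and 3.03 FPKM) did not pass.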

How the data were processed

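An Illumina kit for mRNA was used for the libraries, per the labels' protocols. Per the submitters' processing notes, the authors used TopHat for alignment and Cufflinks for assembly and quantification, and the build was mm9. The sources used here give no version, read length, strand setting or annotation release. The deposited tables hold an FPKM value, a confidence interval and a coverage for each transcript, per the file headers. Depth was recovered as the ratio of coverage to FPKM. For records of loci in all 4 libraries, the median distance from an interval's centre to its ends was 25.8% of that centre. It was 35.7% for loci in 1, counting error only.

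Loci, levels and position classes were computed with Python 3.11.15 and pandas 2.3.3. Annotated genes were summed from Ensembl transcripts of 200 or more bases. M21 was used for names and for introns, each measured within its own build. The intron search found 1843 of 1846 introns of transcripts held by both annotations. Loci and genes were tested together with limma 3.58.1 in R 4.3.3 (functions lmFit and eBayes, the latter with a trend on intensity). Values were on the log2(FPKM + 1) scale, so changes of low values are understated. The test was two-sided, with Benjamini-Hochberg adjustment over all features and a threshold of 0.05. The fit was tested on simulated data. Same-numbered libraries of the 2 groups share only the experiment number of their titles. Their deviations from the group means correlated with r = 0.297 over all features and -0.0825 over the loci.

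Apart from 5 loci chosen after their values were seen, loci were named by rule: the 8 largest rises and falls of equal direction in both experiments, the 8 highest levels and the 4 with most exons among loci in all 4 libraries, up to 6 that start near a gene's start on the other strand, up to 4 found in both libraries of only 1 reporter state, and up to 6 beside genes of keratinocyte differentiation or TGF-beta signalling. A locus that this rule names is not reported here. The members and the lists were chosen with earlier results of these data known. Alternatives were another pseudocount, filters, scaling, locus definitions, a replicate block and leaving out each library.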

Additional observations from a re-analysis of the deposited data

How the results depend on the processing

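Of 65 tested loci 10 passed as reported. The number was 3 with no filter on low values, 3 with features at 0 kept in the fit and 3 with the highest transcript per feature as its level. It was 4 with at least 3 exons and 6 without loci within 5 kb of a gene on the same strand, where fewer loci were tested. All 10 of the reported loci passed with a pseudocount of 0.1 and with a filter on the mean, and 8 of them with median-of-ratios scaling. Leaving out each library in turn, with the spread of the lone sample assumed to be that of the other libraries, gave between 10 and 17 loci, with 6 to 9 of the 10 among them. With the experiment number as a replicate block the count was 29. The numbers come from titles alone and do not show that the libraries of an experiment share animals.

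On the log2(FPKM + 1) scale, loci higher by at least 1 in both experiments numbered 3 as reported, 6 with median-of-ratios scaling, and 1 with at least 500 bases, without the 5-kb flanks or with the highest transcript as level. Loci lower by at least 1 in both numbered 1 as reported, 4 with a pseudocount of 0.1, and 0 with at least 3 exons or without the 5-kb flanks. For the counts that moved without a change in the loci tested the cause was not tested. Of 26 named loci in the test, none that passed changed sign under the block, the scaling, the pseudocount or leaving out a library. Among all 26, the sign changed in 2 with median-of-ratios scaling and in 1 without the negative library of experiment 1. It changed in 1 without the positive library of experiment 1 and in 2 without that of experiment 2. A locus that did not reach 1 FPKM in 2 libraries was not tested.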
